A study of Mus musculus with 8 samples.

Results

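Epithelial cells of mouse small intestinal organoids were set against epithelial cells taken from mouse small intestine. The organoid side was every barcode of the control organoid library with at least 500 genes and at most 20% of its unique molecular identifiers (UMIs) from mitochondrial genes, 540 of 818 barcodes. The tissue side was every barcode of the small intestine library that met the same limits and held at least 3 UMIs of Epcam, the gene of an adhesion protein carried by epithelial cells, 1520 of 8842 barcodes. Together these were 2060 of the 19539 barcodes in the 4 single-cell libraries of the series. Of the tissue barcodes that met the limits on genes and mitochondria, 91 held 2 Epcam UMIs, with a median depth of 5879 UMIs, and were left out, while 55 held exactly 3, with a median depth of 11283, and were kept.

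The organoids were at passage 1, came from C57BL/6 mice and carried the treatment label CTRL; 16 wells were pooled and 100000 epithelial cells were sorted. The tissue library came from digested small intestine of C57BL/6 mice and of Lgr5-eGFP-ires-CreERT2 mice on that background, in which an enhanced green fluorescent protein reports the stem cell gene Lgr5. The sort took 50000 live cells and enriched LGR5+ stem cells (50000) and lymphatic endothelial cells marked as CD31+ PDPN+ LYVE1+ (20000 to 25000), so the makeup of the library is set by the sort and not by the gut. Cocultured organoids (same strain and passage, label COCULTURE, 1037 barcodes by the same limits, pooled with the control cells before the single-cell run per the design text) and epithelial barcodes of a large intestine library sorted like the small intestinal one (4537 barcodes) are given beside them. So are 885 barcodes of the small intestine library with 0 Epcam UMIs, which are other cells or carry free RNA, and 2 Visium sections of small intestine, 10 µm thick and technical duplicates, in which no cell was dissociated. The cocultured organoids were compared with the same tissue library, so their ratios are not independent of those of the control organoids.

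There was 1 library per side, so no test between organoids and tissue could be made and no p-value is given. Culture, dissociation, sorting, mice, cell composition and library depth all differ between the sides and cannot be told apart. Intervals below are 95% and cover counting error only.

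Organoids are closed epithelial spheres and buds grown from intestinal stem cells in a gel, fed with a medium that replaces the niche's growth factors. In the gut the same epithelium renews from crypt stem cells into absorptive enterocytes and into secretory Paneth, goblet, hormone and tuft cells, beside microbes, bile, dietary lipid, immune cells and a steep oxygen gradient. Of these surroundings the culture keeps the epithelium alone, so genes that read lipid supply, oxygen, amino acids, injury, microbes and interferon are among those in which cultured and native epithelium can differ.

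Organoid cells were deeper, with a median of 73917 UMIs and 6743 genes against 27733.5 UMIs and 4759.5 genes in tissue epithelial cells, and the kept barcodes held 43534069 and 47085408 UMIs in all. Of the 540 organoid barcodes, 486 held at least 3 Epcam UMIs. In organoids 6 leukocyte markers summed to 0.322 CPM (UMIs scaled to a total of 1000000) and 7 fibroblast markers to 0.0459 CPM, with 6 of the 7 at 0. Lymphatic endothelial markers summed to 1.93 CPM, plasma cell markers to 125 CPM with 4 of 6 at 0, and blood endothelial markers to 12.8 CPM, against 10.0 in tissue epithelium. Tissue epithelium held 85.6 CPM of the leukocyte, 19.6 of the fibroblast, 35.1 of the lymphatic endothelial and 6179 of the plasma cell markers, while barcodes without Epcam held 2861, 3425, 4524 and 23666 CPM. Clusters of 56 plasma cell-like and 5 lymphatic endothelial-like cells were among the 1520 barcodes chosen by Epcam. The tissue side thus holds RNA of other cells, and its part in a result was not tested except where a value stands beside it. In the sections smooth muscle or pericyte markers summed to 7115 and 9627 CPM, against 5.10 in tissue epithelium, and fibroblast markers to 1444 and 1517 CPM. Section levels are therefore those of whole tissue and not of epithelium alone.

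Each gene was compared by the log2 ratio of its CPM in organoids over tissue epithelium, less 0.18, the median over the 9908 genes with at least 5 CPM on either side. A gene is called higher or lower in organoids when this centred ratio is at least 1 or at most -1. By that rule 810 genes were higher, 8.18% of those compared, and 1115 were lower, 11.3%. The other 7983 genes lay within 1 unit. Without the centring, 1127 genes were higher and 921 lower, so the balance between the directions depends on the scaling. Counts of called list members are to be read against these shares over all genes. At the far ends, 152 genes were at least 3 units higher and 276 at least 3 units lower.

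**Figure D1:**
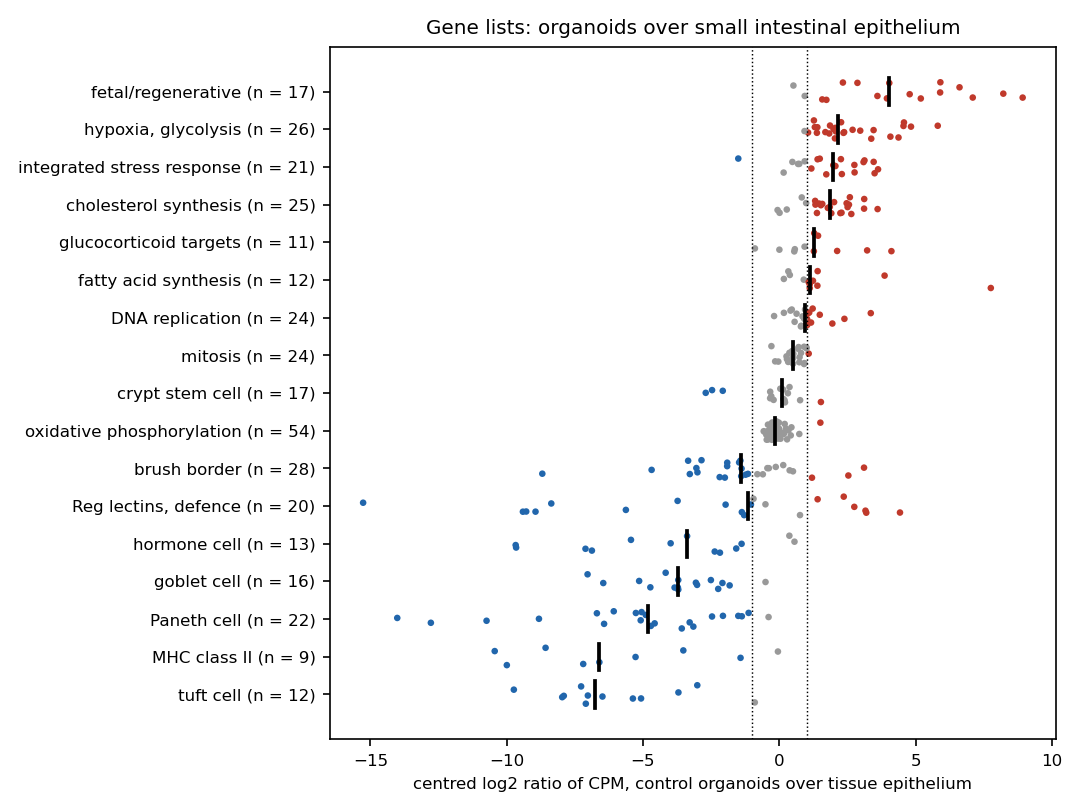
Centred log2 ratio of CPM, control organoids over tissue epithelium, for the genes compared in 17 lists; each point is a gene (red, at least 1; blue, at most -1; grey, between), black bars are list medians and dotted lines mark 1 and -1. Lists of oxygen, lipid, amino acid and injury genes lie to the right, secretory lineage and MHC class II lists to the left, and oxidative phosphorylation genes near 0.

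Among the groups higher in organoids, 3 are known to be controlled through a short DNA element, so promoters of members that moved together are shown with the element in capitals. Hypoxia-inducible factors bind ACGTG, the factor ATF4 of the amino acid response binds TGATGNAA, and the sterol-regulated factor SREBP2 binds elements such as TCACNCCAC. The stretches are 100 bases from the 250 bases before the RefSeq gene start (GRCm38.p6), read 5′ to 3′ on the gene's strand, and capitals mark a match on either strand.
Ankrd37 chr8:45999851-45999950 (minus strand): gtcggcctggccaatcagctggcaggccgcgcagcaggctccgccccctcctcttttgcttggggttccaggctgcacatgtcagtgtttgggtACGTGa
Slc16a3 chr11:120948967-120949066 (plus strand): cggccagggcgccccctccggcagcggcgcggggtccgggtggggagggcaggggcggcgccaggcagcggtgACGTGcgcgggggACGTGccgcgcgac
Bnip3 chr7:138909562-138909661 (minus strand): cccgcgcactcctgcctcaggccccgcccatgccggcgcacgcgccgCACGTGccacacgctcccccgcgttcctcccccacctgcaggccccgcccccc
Asns chr6:7693210-7693309 (minus strand): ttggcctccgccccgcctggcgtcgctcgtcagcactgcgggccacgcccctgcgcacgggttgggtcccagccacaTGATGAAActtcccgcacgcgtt
Chac1 chr2:119351003-119351102 (plus strand): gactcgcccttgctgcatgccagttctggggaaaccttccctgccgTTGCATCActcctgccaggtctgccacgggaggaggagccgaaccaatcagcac
Hmgcs1 chr13:119690168-119690267 (plus strand): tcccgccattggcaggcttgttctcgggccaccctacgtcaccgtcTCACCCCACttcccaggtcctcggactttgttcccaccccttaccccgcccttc

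The Ankrd37 match ends 2 bases before the start, Slc16a3 has 2 matches within 27 bases of it, and in Bnip3 matches on both strands overlap in 1 run of capitals about 108 bases before it. Asns carries its element 23 to 16 bases before the start, and Chac1 carries it on the opposite strand. ACGTG was found on either strand in 18 of the 35 windows of hypoxia and glycolysis genes, 51.4%, against 16.6% of all 32851 windows of this length; the 18 belong to 16 of 25 genes. TGATGNAA was found in 6 of 25 windows of stress response genes, 24%, against 3.45%. TCACNCCAC was found in 1 of 20 windows of cholesterol genes, that of Hmgcs1, against 1.05%, and the others lacked these letters. These are matches of letters and not measured binding sites.

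Genes of glycolysis and of the response to low oxygen were higher in organoids nearly without exception. Of 27 genes listed 26 were compared, and 25 were higher and 0 lower, against 8.18% higher among all genes, with a median of 2.17. The exception, Pdk1, a kinase that restrains the oxidation of pyruvate in mitochondria, was at 44.8 CPM in organoids and 20.8 in tissue, a ratio of 0.92. Summed over the list, control and cocultured organoids held 13794 and 15136 CPM, tissue epithelium of small and large intestine 2969 and 2994, and the 2 sections 6661 and 7271. Both organoid libraries were above every tissue set, and the undissociated sections lay between them and the dissociated epithelium.

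Slc2a1, the glucose importer GLUT1, was at 106 CPM in control and 70.4 in cocultured organoids, against 8.54 in tissue epithelium, a ratio of 3.46 (3.31 to 3.61). Slc16a3, the lactate exporter MCT4, was at 65.9 and 50.8 CPM in the organoid libraries and at 2.44 in tissue epithelium, a ratio of 4.57 (4.30 to 4.85). In the sections, however, Slc16a3 was at 75.5 and 108 CPM, at or above the organoid level, so organoids exceeded dissociated epithelium but not whole tissue.

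The glycolytic enzymes followed with smaller ratios. Gapdh was at 3528 and 4227 CPM in the organoid libraries against 300.3 in tissue epithelium and 673 and 666 in the sections, a ratio of 3.37. Gapdh and Eno1 have many near-identical copies in the genome, so their counts are uncertain. Pkm, Aldoa and Pgk1, enzymes of the lower pathway, had ratios of 2.35, 2.08 and 2.04. Ldha, which turns pyruvate into lactate, had a ratio of 1.40, with 2385 CPM in control organoids, 799 in tissue epithelium and 2105 and 2234 in the sections.

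Targets of hypoxia-inducible factors outside glycolysis and transport were higher as well. Egln3, an oxygen-sensing prolyl hydroxylase, was at 157 and 114 CPM in organoids, 6.69 in tissue epithelium, and 181 and 238 in the sections. Ankrd37 was at 109.7 and 132 CPM in organoids against 3.40 in tissue epithelium and 17.7 and 19.7 in the sections. Bnip3, a receptor for the removal of mitochondria, was at 56.0 and 46.9 CPM against 2.93, with 35 and 44 in the sections. For Ankrd37 both organoid libraries stood above all tissue sets, whereas for Egln3 the sections were highest. Adm, the peptide adrenomedullin, had the largest ratio, 5.81 (4.96 to 6.82), from 648 organoid and 11 tissue UMIs, and Vegfa, the vascular growth factor, had 2.69.

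The difference ran through nearly the whole population. After each cell was thinned to 2000 UMIs, the median organoid cell held 26 UMIs of the list and the median tissue epithelial cell 5. Of 489 organoid cells deep enough, 83.2% held more than the 95th percentile of tissue cells, which was 15 UMIs, and the same share, 83.2%, was found in cocultured organoids. Nuclear genes of oxidative phosphorylation did not move the same way: 1 of 54 was higher and 0 lower, with a median of -0.15 and 69 against 67 UMIs in the median thinned cell.

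**Figure D2:**
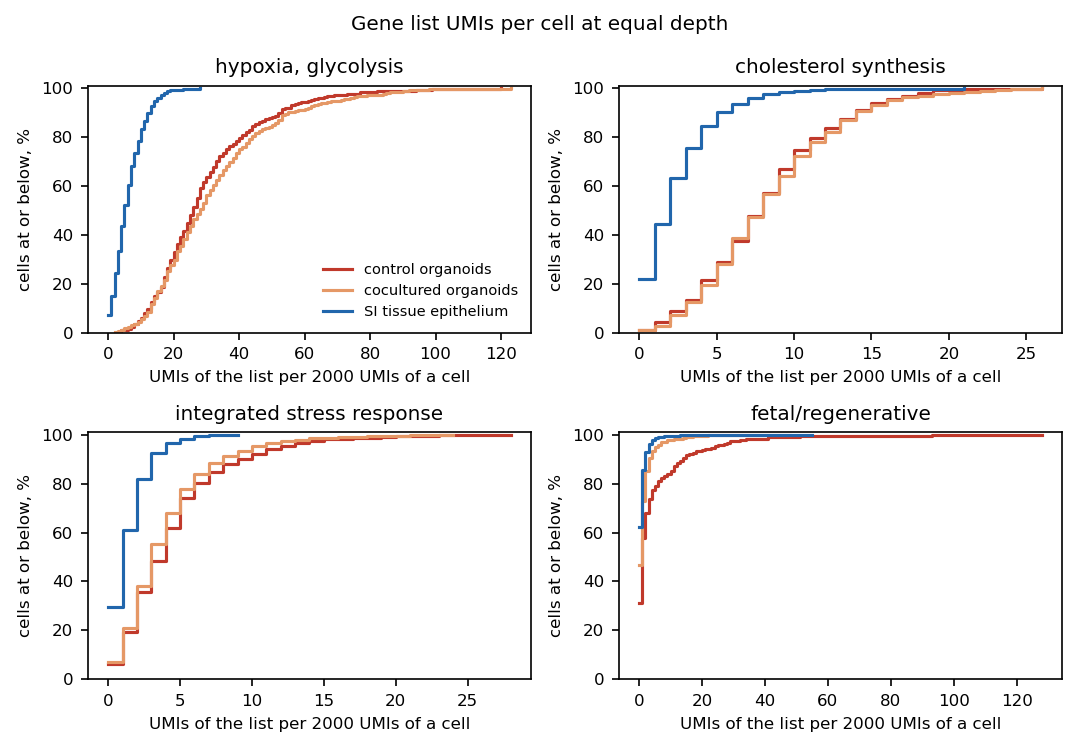
Cumulative share of cells (vertical axis, %) by the number of UMIs of a gene list among 2000 UMIs of the cell (horizontal axis), for control organoids (red), cocultured organoids (orange) and small intestinal (SI) tissue epithelium (blue). Hypoxia, cholesterol and stress response curves of organoids are shifted as a whole, with medians of 26, 8 and 4 against 5, 2 and 1 UMIs, while the fetal and regenerative list differs mainly in its upper tail.

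Cholesterol synthesis genes were the second such group. Of 25 genes of the pathway and its sterol-sensing control, all compared, 20 were higher and 0 lower, with a median of 1.85. The list summed to 4205 and 4252 CPM in the organoid libraries, 1091 and 1387 in small and large intestinal epithelium, and 3100 and 3340 in the sections. The sections thus held most of the organoid level and stood well above the dissociated epithelium. The median thinned cell held 8 UMIs in organoids and 2 in tissue, and 52.2% of organoid cells exceeded the tissue 95th percentile of 7.

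Along the pathway, Hmgcs1, an early enzyme, had a ratio of 1.32. It was at 301 and 275 CPM in organoids, 107 in tissue epithelium and 375 and 406 in the sections, so the sections were highest. Idi1 and Fdps, which make and join the isoprene units, were at 355 and 376 CPM and at 650.2 and 745 CPM in organoids, against 55.2 and 118 in tissue epithelium, ratios of 2.51 and 2.28. For Fdps the sections were as low as the epithelium, at 118 and 116 CPM. Ebp, an enzyme of a late step, differed less, with a ratio of 0.27.

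Among the regulators, Insig1, which holds the SREBP precursors in the endoplasmic reticulum, had a ratio of 3.11, and Acat2, which makes the pathway's starting unit in the cytosol, also 3.11. Insig1 was at 187 and 185 CPM in organoids, 19.1 in tissue epithelium and 76.9 and 78.6 in the sections, so both organoid libraries were highest. The factor Srebf2 stayed under the limit, at 0.82. Stard4, a cholesterol carrier, was at 109 CPM in organoids and 95.5 in tissue.

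Fatty acid genes moved less evenly. Of 12 compared from 14 listed, 8 were higher and 0 lower, with a median of 1.12 that came to 0.90 in cocultured organoids. Scd1, which puts the double bond into stearate, was at 157 and 132 CPM in the organoid libraries and at 0.637 in tissue epithelium, a ratio of 7.76 (7.24 to 8.33), but at 64.3 CPM in barcodes without Epcam and 69.2 and 40.5 in the sections. Its relative Scd2 was at 670.0 CPM in control organoids and 40.6 in tissue epithelium. Fasn, Acss2 and the factor Srebf1 had ratios of 1.40, 1.41 and 1.12, whereas Acaca and Elovl6, enzymes on either side of Fasn, stayed within 1 unit.

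Genes of the integrated stress response, through which cells answer scarce amino acids and misfolded protein, were higher in 15 of 21 compared (23 listed), with 1 lower and a median of 1.98. The list summed to 1982 and 1819 CPM in organoids, 749 in tissue epithelium, and 885 and 947 in the sections, so here the sections sided with the epithelium. The serine synthesis enzymes Phgdh, Psat1 and Psph were all higher. Phgdh was at 178 and 167 CPM in organoids, 18.4 and 73.9 in small and large intestinal epithelium, and 11.7 and 8.77 in the sections, a ratio of 3.09. Psat1 was at 87.5 and 78.0 CPM against 6.84, with 7.47 and 6.55 in the sections, a ratio of 3.50. For both, the organoid libraries stood above every tissue set.

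Asns, asparagine synthetase, was at 202 and 187 CPM in organoids and 37.1 in tissue epithelium, a ratio of 2.26. Chac1, which breaks down glutathione, Trib3, a pseudokinase that damps the response, and Ddit4, an inhibitor of the growth kinase mTORC1, had ratios of 3.62, 3.46 and 3.12. The factor Atf4 itself, which is controlled mainly at translation, was at 216 CPM in organoids, 118 in tissue epithelium and 334 and 393 in the sections, a ratio of 0.69. The amino acid transport genes Slc3a2 and Slc7a1 had ratios of 0.16 and 0.48. Nupr1 was the member called lower, at -1.51, and it turned to 0.61 when cells were averaged one by one and to 1.62 when barcodes with a UMI of another cell type's markers were removed. Here and below, those markers are the leukocyte, lymphatic endothelial, blood endothelial and fibroblast sets. Plasma cell and further marker sets were not used for this removal.

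A smaller group of glucocorticoid targets was also higher, 6 of 11 compared with 0 lower and a median of 1.27. The list summed to 3110 CPM in control and 4478 in cocultured organoids, against 1052 in tissue epithelium. Sgk1, a kinase of sodium transport, was at 177 and 158 CPM in organoids, 9.03 in tissue epithelium and 85.6 and 106 in the sections, a ratio of 4.11. Fkbp5, a chaperone that feeds back on the receptor, was at 182 and 156 CPM against 17.2, with 17.7 and 14.4 in the sections. The metallothioneins Mt1 and Mt2, which also answer zinc, had ratios of 1.42 and 1.27. The receptor Nr3c1 was lower in organoids but inside the limit, at -0.89, with 59.9 and 52.6 CPM against 98.2 in tissue epithelium and 193 in barcodes without Epcam. Tsc22d3, a further target, was at 58.7 CPM in organoids, 27.2 in tissue epithelium and 214 in barcodes without Epcam.

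Genes known from fetal epithelium and from regeneration after injury had the largest list median among those higher, 4.03, with 15 of 17 compared genes higher and 0 lower (23 listed). Unlike the hypoxia, cholesterol and stress response lists, they set the organoid libraries apart from each other. The fetal and regenerative list summed to 1876 CPM in control and 570.3 in cocultured organoids, and the median ratio of the latter was 1.85. Tissue epithelium held 277.3 CPM, large intestinal epithelium 869, barcodes without Epcam 1409 and the sections 719 and 889. In 12 of the 17 genes the barcodes without Epcam exceeded tissue epithelium, against 5550 of the 9908 genes compared.

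Sprr1a, a cornified envelope protein of stressed epithelia, was at 117 CPM in control and 35.4 in cocultured organoids, 0.212 in tissue epithelium, and 16.8 and 29.6 in the sections. Anxa1 was at 70.6 CPM in control but 2.44 in cocultured organoids, against 0.637 in tissue epithelium. F3, tissue factor, was at 132 and 10.2 CPM against 1.93, and Cldn4, a tight junction claudin, at 292 and 67.4 CPM against 16.7. In each of these the control organoids were highest of the 3. Clu, clusterin, a marker of revival stem cells, went further: 111 CPM in control organoids, 0.571 in cocultured organoids and 3.57 in tissue epithelium, with 25.7% of its control UMIs in 1 cell. Msln, mesothelin, was at 21.5 CPM in control organoids with 34.3% of its UMIs in 1 cell, and had 0 UMIs in tissue epithelium, so its ratio of 8.22 is a lower bound. Ly6a, the SCA-1 antigen, had a ratio of 2.33, with 89.3 CPM in control organoids, 15.6 in tissue epithelium and 233 in barcodes without Epcam.

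The list differed mainly in its upper tail. The median thinned organoid cell held 1 UMI of it and the median tissue cell 0, yet 26.2% of control organoid cells were above the tissue 95th percentile of 3, against 9.38% of cocultured organoid cells. S100a6, a calcium-binding protein, was at 1899.6 CPM in control and 666 in cocultured organoids against 229.6 in tissue epithelium, though at 1565 and 1435 in the sections. Lgals3, galectin-3, had a ratio of 2.88 in control and 1.53 in cocultured organoids.

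The EGF family was led by a ligand. Areg, amphiregulin, was at 529 CPM in control and 253 in cocultured organoids, 4.71 in tissue epithelium, and 16.4 and 17.5 in the sections, a ratio of 6.63 (6.44 to 6.83). It was seen in 31.9% of thinned organoid cells, 1.07% of tissue epithelial cells and 0.420% of barcodes without Epcam, and in 73.7%, 6.45% and 0.339% before thinning. Both organoid libraries stood above every tissue set. Btc, betacellulin, and Hbegf, further ligands, had ratios of 3.53 and 1.16. Of the receptors, Egfr was at 29.4 CPM in control organoids, 8.74 in cocultured organoids and 9.0 in tissue epithelium, and Erbb3 was lower in organoids, at 38.8 and 24.1 against 77.8 CPM. In all, 4 of 8 compared genes were higher and 1 lower, against 8.18% and 11.3% of all genes.

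**Figure D3:**
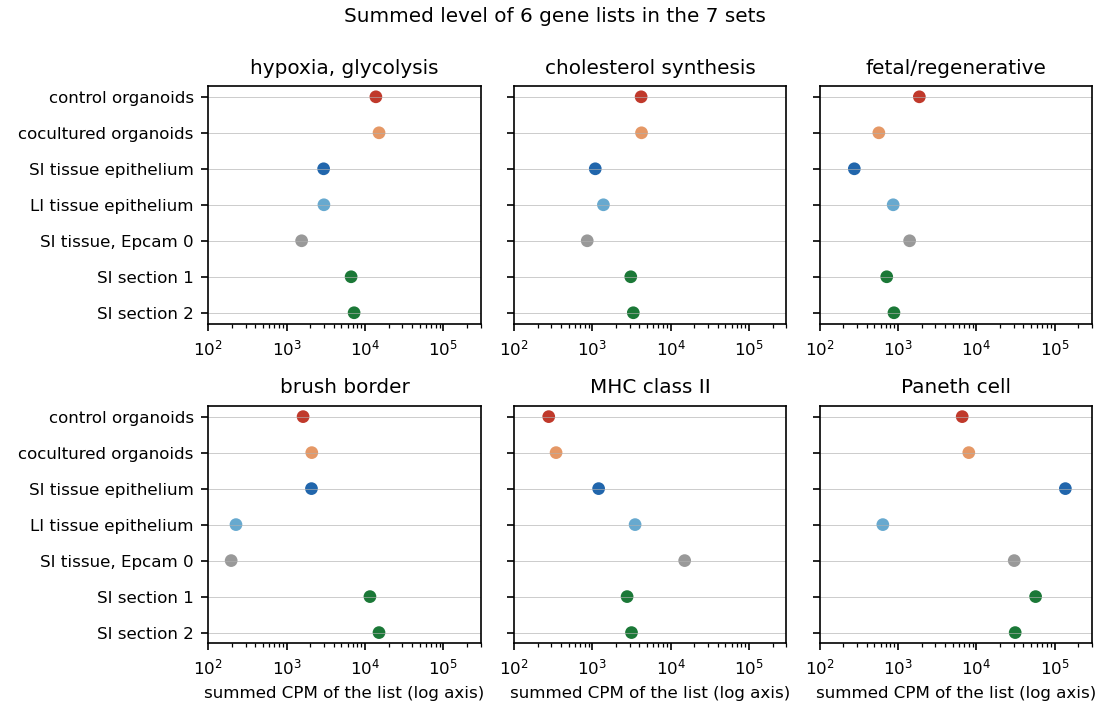
Summed CPM of 6 gene lists (log axis) in control and cocultured organoids, small (SI) and large intestinal (LI) tissue epithelium, barcodes of the small intestine library without Epcam and 2 sections; each point is 1 set. Both organoid libraries are highest for hypoxia and cholesterol genes, 13794 and 15136 CPM for the former, while the fetal and regenerative list separates control from cocultured organoids and MHC class II genes are highest without Epcam, at 15116 CPM.

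Of 24 DNA replication genes 11 were higher and 0 lower, with a median of 0.94, and of 24 mitosis genes 1 was higher, Aurka at 1.08, with a median of 0.51. In cocultured organoids these lists were alike, with medians of 0.85 and 0.88 and 8 and 7 genes higher, against 8.62% of all genes, and in Mki67-positive cells 3 and 0 of the 24 genes were higher, against 6.49%. With barcodes that held a UMI of another cell type's markers removed from both sides, the medians turned to -0.09 and -0.25. This left 309 of 540 organoid and 474 of 1520 tissue barcodes and used full-depth counts, so deeper cells were more exposed to removal. The cycling-like organoid clusters had median depths of 110926 and 122147 UMIs, against 73917 over all organoid cells. Whether loss of such cells moved the medians was not tested. Rrm2, which makes deoxynucleotides, was at 161 and 151 CPM in organoids against 13.9 in tissue epithelium, a ratio of 3.36, and the G1/S cyclins Ccne2 and Ccne1 had 2.39 and 1.95. Mki67, which marks cycling cells, was nearly equal, at 186 CPM in organoids and 183 in tissue epithelium, and was seen in 16.4% of thinned cells on both sides and in 3.78% of barcodes without Epcam (51.3%, 46.0% and 7.80% before thinning). The tissue sort enriched for stem cells, so this share does not describe the gut. The histone gene Hist1h2ap was at 1074 CPM in organoids and 39.7 in tissue epithelium; replication histones have near-identical copies and the value is uncertain.

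Of 17 crypt stem cell genes compared 1 was higher and 3 were lower, near the 8.18% and 11.3% of all genes, with a median of 0.10. The median was -0.51 in cocultured organoids, and also -0.51, with 7 of 18 genes lower against 10.3% of all genes, without barcodes that held other cell types' markers. Lgr5, the receptor that the sort used, was at 6.41 CPM in control and 1.40 in cocultured organoids, 23.8 in tissue epithelium, and 9.03 and 7.21 in the sections. Olfm4, secreted by crypt base cells, was at 157 and 69.4 CPM against 902, with 299 and 186 in the sections. For both genes the cocultured organoids were lowest. Smoc2, a matricellular protein of the crypt base, went the other way, at 172 and 149.7 CPM against 52.8. Ascl2 and Axin2, targets of Wnt signalling, were within 1 unit, at -0.33 and -0.34.

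Genes of the secretory lineages were lower in organoids. The sums do not tell whether there were fewer secretory cells or less of their RNA per cell. All 4 lists were lower: 21 of 22 Paneth, 15 of 16 goblet, 11 of 13 hormone and 11 of 12 tuft genes, against 11.3% of all genes, with 0 higher in any of them. Their medians were -4.81, -3.71, -3.38 and -6.76. The hormone median came to -1.46 over 10 genes when barcodes with the highest doublet scores were removed, and the Paneth and tuft medians to -3.01 over 21 genes and -1.39 over 5 genes when barcodes with a UMI of another cell type's markers were removed. Whether that removal took out tuft cells themselves was not tested. In Mki67-positive cells alone the Paneth median was -0.33. Among the tissue cells, clusters could be named for each lineage. Paneth-like cells were 137 (9.01%), goblet-like 221 (14.5%), tuft-like 102 (6.71%) and enteroendocrine-like 26 (1.71%) of the 1520, and in the organoids 30 of 540 cells formed a cluster that mixed Paneth and hormone genes and stayed unnamed.

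Paneth cell antimicrobial genes summed to 6613 and 8024 CPM in the organoid libraries, 137083 in tissue epithelium, 30498 in barcodes without Epcam, and 57179 and 31377 in the sections. Defa24, an alpha-defensin, was at 3112 and 3882 CPM in organoids against 65342, and Lyz1, Paneth lysozyme, at 798 and 615 against 8407. Defa24 was seen in 93.2% of thinned tissue epithelial cells and in 98.5% of barcodes without Epcam (99.9% and 100% before thinning), so a share of tissue cells does not separate Paneth cells from background, while 46.2% of thinned organoid cells held no UMI of the whole list. Defensin genes differed widely among themselves. Defa21 and Defa22 had ratios of -14.02 and -10.74, with 27 and 257 UMIs in organoids, and Mptx2, a pentraxin, had -12.78, whereas Defa24 and Defa30 had -4.57 and -4.71. Alpha-defensins are close copies of each other, so the split between them is uncertain.

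Goblet cell genes summed to 2811 and 2776 CPM in organoids and 26647 in tissue epithelium. Muc2, the gel-forming mucin, was at 48.6 and 58.5 CPM against 1515, with 2684 and 2375 in the sections, a ratio of -5.14. Zg16, a lectin that keeps bacteria off the mucus, had -7.03 and Clca1, a mucus-processing protease, -6.46, while Tff3, a trefoil peptide, had -2.51. Tuft cell genes reached the lowest median: Dclk1 was at 0.758 and 0.581 CPM against 87.0, and the 17 Rgs13 UMIs of the organoids were all in 1 cell.

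Hormone genes separated the organoid libraries again. Chga, a granule protein of all enteroendocrine cells, was at 7.63 CPM in control organoids, 97.3 in cocultured organoids and 30.4 in tissue epithelium. Gcg, proglucagon, had 1 UMI in control organoids, 55.3 CPM in cocultured organoids and 49.0 in tissue epithelium. Over the list the median was -3.38 for control and -0.13 for cocultured organoids. Of the control organoids' Chga UMIs 55.1% were in 1 cell, so these values rest on very few cells. Gip and Sst, hormones of K and D cells, were lower in both organoid libraries, Gip at 3.58 and 0.887 CPM against 371.

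Genes of mucosal defence split in both directions, 6 higher and 11 lower of 20 compared (29 listed), with a median of -1.17 that came to -0.43 over 17 genes without barcodes that held other cell types' markers. The Reg lectins, which enterocytes and Paneth cells secrete against bacteria, were far lower in organoids. Reg3b was at 0.184 CPM in control and 6.15 in cocultured organoids, 6398 in tissue epithelium, and 35342 and 30896 in the sections, a ratio of -15.27 (-16.48 to -14.29) from 8 organoid UMIs. Reg3g was at 5.63 and 7.95 CPM against 2445, and Reg1 and Reg3a had ratios of -9.29 and -9.41. At full depth a Reg3b UMI was seen in 0.926% of organoid cells, 94.3% of tissue epithelial cells and 59.1% of barcodes without Epcam. After thinning to 2000 UMIs the shares were 0%, 53.6% and 35.8%. A limit of 3 in 489 organoid cells sets the 0% at up to 0.613% with a UMI at that depth. This limit is not the exact interval used for other shares. It does not limit the share of cells that express the gene. Retnlb, a goblet cell bactericide, had 0 UMIs in both organoid libraries against 20.0 CPM in tissue epithelium, and its ratio of -8.37 is a bound.

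The secretory antibody receptor Pigr was at 557 and 543 CPM in organoids against 1275, a ratio of -1.37, and Ccl25, which draws lymphocytes to the small intestine, had -1.97. Other defence genes were higher. Ccl20, which draws lymphocytes and dendritic cells to follicles, was at 71.5 and 72.0 CPM in organoids, 2.93 in tissue epithelium, and 5.01 and 6.68 in the sections. Nos2, inducible nitric oxide synthase, was at 31.1 and 22.0 CPM against 4.08, but at 93.8 and 112 in the sections. Sprr2a3, whose copies are near-identical, was at 596 CPM in control organoids and 57.6 in tissue epithelium, with 1590.1 and 1473 in the sections.

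Antigen presentation by MHC class II was lower in organoids in 8 of 9 genes compared, with a median of -6.60. H2-Aa had 0 UMIs in both organoid libraries against 84.5 CPM in tissue epithelium, a bound of -10.44, and Cd74, the invariant chain, was at 0.620 and 0.296 CPM against 559. Ciita, the master regulator, had 1 UMI in control organoids and 5.90 CPM in tissue epithelium. All 9 genes were higher without Epcam than in tissue epithelium, Cd74 at 7153 and Ciita at 187 CPM, and the part of such RNA in the difference was not tested. With barcodes that held a UMI of the leukocyte, endothelial or fibroblast markers removed from both sides, the median was -4.94. The B cell, plasma cell and macrophage marker sets were not used for this removal. In large intestinal epithelium the list summed to 3520 CPM, against 1205 in small intestinal epithelium and 278 and 345 in organoids. Ifi30, a lysosomal reductase of the same list, was at 248 CPM in control organoids and 227 in tissue epithelium.

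Of 18 MHC class I genes compared 5 were lower and 0 higher, against 11.3% and 8.18% of all genes, and 13 lay within 1 unit, with a median of -0.69. The immunoproteasome subunits Psmb8 and Psmb9 had ratios of -2.26 and -2.43, the peptide transporter Tap1 -2.10, and H2-T3, the thymus leukaemia antigen of gut epithelium, -2.93. H2-T3 was at 2.84 CPM without Epcam and 56.3 in tissue epithelium, unlike Psmb8, which was at 324 and 125. Among interferon response genes 8 of 24 compared were lower, against 11.3% of all genes, and 1 higher, with Zbp1 at -4.28 and Oasl1 at 2.70, and 20 of the 24 were higher without Epcam than in tissue epithelium, against 5550 of all 9908. With marker-bearing barcodes removed as above, the interferon median turned from -0.58 to 0.23.

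Digestive and absorptive genes were lower in part. Of 28 brush border hydrolases and transporters 17 were lower and 3 higher, with a median of -1.39. The median came inside 1 unit in cocultured organoids, at -0.99 with 14 lower against 12.4% of all genes, and without barcodes that held other cell types' markers, at -0.53 with 12 lower against 10.3%. The list summed to 1624 and 2096 CPM in organoids, 2077 in tissue epithelium, and 11584 and 15117 in the sections. The sorted tissue epithelium was therefore itself far below whole tissue, and its enterocyte genes are a low reference. Slc34a2, a phosphate transporter, had 3 UMIs in control organoids and 25.2 CPM in tissue epithelium, with 243 and 319.9 in the sections. Anpep and Mep1a, peptidases, were at 23.6 and 2.21 CPM in control organoids against 211 and 50.0. Sis, sucrase-isomaltase, was at 224 and 402 CPM against 439, and Slc5a1, the glucose cotransporter SGLT1, at 283 and 349.9 against 192.

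Alkaline phosphatases ran against the trend. Alpi, the intestinal enzyme, was at 461 and 478 CPM in organoids, 47.2 in tissue epithelium, and 174 and 261 in the sections, a ratio of 3.11. Its neighbour Akp3 was at 94.3 and 90.9 CPM in organoids against 0.319 in tissue epithelium and 0 in both sections. Slc46a1, the folate transporter, was at 20.5 and 15.4 CPM against 3.12. Both organoid libraries were above all tissue sets for these 3 genes.

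Genes known to differ along the gut were mixed. Of 21 regional and epithelial transcription factors compared 1 was higher and 7 lower, against 8.18% and 11.3% of all genes, with a median of -0.33. Fabp6, the bile acid carrier of the ileum, was at 0.919 and 1.18 CPM in organoids, 1652 in tissue epithelium, and 5815 and 5149 in the sections, a ratio of -10.99 (-11.48 to -10.55). Slc51a and Slc51b, which export bile acids from enterocytes, had ratios of -4.37 and -1.99, and Slc10a2, the ileal importer, was at 14.1 CPM on both sides and at 831 and 962 in the sections. Of 5 compared, 3 were lower and 0 higher, with a median of -1.99 that came to -1.18 without barcodes that held other cell types' markers. Onecut2 and Gata4, factors of the proximal small intestine, were at 156 and 39.8 CPM in control organoids and 60.2 and 25.8 in tissue epithelium, but Onecut2 was at 0.411 and 0.698 and Gata4 at 1.15 and 1.76 in the sections. Hoxb9 and Osr2 were lower, Hoxb9 with 0 UMIs in organoids against 5.08 CPM and Osr2 at 14.1 against 56.4. Cdx2, the factor of intestinal identity, was at 112 and 106 CPM. The labels do not give the segment of any library, and segment and culture cannot be told apart here.

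Fat absorption and vitamin genes were called in both directions. Of 23 fat absorption genes 5 were higher and 4 lower, against 8.18% and 11.3% of all genes, with a median of 0.30. This balance depended on the cells: without barcodes that held other cell types' markers 11 were higher and 2 lower, against 11.3% and 10.3% of all genes, with a median of 1.00. In Mki67-positive cells 4 of 22 were higher and 7 lower, against 6.49% and 9.55%, with a median of -0.35. Apoa4, an apolipoprotein of chylomicrons, was at 1537 and 1125 CPM in organoids against 158, whereas Fabp2, a fatty acid carrier, was at 353 and 657 against 1733. In Mki67-positive cells alone the Apoa4 ratio came to -0.25. Of 12 retinoid and vitamin D genes compared 5 were higher and 7 lower, and none lay within 1 unit. S100g, a calcium carrier of the vitamin D programme, was at 497 and 501 CPM against 33.5, while Vdr, its receptor, was at 50.7 and 57.8 against 130.5. Rbp2, which carries retinol, had a ratio of 1.29, and Isx, which represses the uptake of carotenoids, had -3.70. Among 20 genes of the NRF2 response 5 were higher, against 8.18% of all genes, 1 was lower and 14 lay within 1 unit, with a median of 0.49. Hmox1, heme oxygenase, had the largest ratio, 4.75, and the cystine importer Slc7a11 had 3.76.

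The groups were then compared within cells of like kind, since the sides differ in composition. Clustering without the listed genes gave 128 organoid and 250 tissue cycling-like cells and 50 and 185 enterocyte-like cells, and a further pair was formed by cells with a Mki67 UMI after thinning, 80 and 247. Another 87 organoid cells scored highest for stem cell markers. Their leading genes held the replication genes Ung, Cdc6 and Dtl and not Lgr5, Olfm4 or Gkn3, so they are given no name here. Besides these, 50.9% of the organoid cells stayed in unnamed clusters, 62 of them in a cluster with a median of 1417.5 UMIs. Against 141 stem-like tissue cells, the 87 cells had medians of 2.78 for the hypoxia, 2.70 for the cholesterol and 1.60 for the stress response list. Their fetal and regenerative median was 1.35, and 0.76 at a finer resolution of 2 with 34 and 142 cells. Their oxidative phosphorylation median was 0.53. In the cycling-like, enterocyte-like and Mki67-positive comparisons the hypoxia list had medians of 2.64, 3.16 and 2.44, the cholesterol list 1.84, 2.33 and 1.86, and the stress response list 2.31, 2.54 and 2.32, against 2.17, 1.85 and 1.98 over all cells.

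In cycling-like cells 24 of 25 hypoxia, 22 of 25 cholesterol and 14 of 20 stress response genes were higher, against 6.85% of all genes compared in these cells. Slc16a3 was at 34.4 CPM in cycling-like organoid cells and 1.45 in cycling-like tissue cells, and at 80.6 and 2.78 CPM in enterocyte-like cells. The fetal and regenerative list kept medians of 2.66, 3.33 and 2.17 from 9, 13 and 12 compared genes, against 4.03 over all cells. This list depended on the clustering: at a finer resolution of 2, with 125 and 242 enterocyte-like cells, its median was 4.85. MHC class II genes had -6.13, -3.79 and -5.29, and oxidative phosphorylation genes 0.00, -0.18 and -0.04. At the finer resolution the latter had -0.51 in enterocyte-like cells. The enterocyte-like cells of the tissue pool 120 cells of a cluster led by genes such as Cyp2b10 and Lct with 65 of a cluster led by Fabp6, Baat and Slc10a2, while the 50 organoid cells are 1 cluster with Lct and G6pc among its leading genes. In them 2 of 5 ileal bile acid genes compared were lower, against 10.9% of all genes in these cells, with a median of -0.79. Their sum, 315.8 CPM in organoids and 10275 in tissue, rests mainly on Fabp6, with 0 UMIs in organoids and 9172 CPM in tissue. The 17 Reg and defence genes compared in these cells had a median of -1.58.

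**Figure D4:**
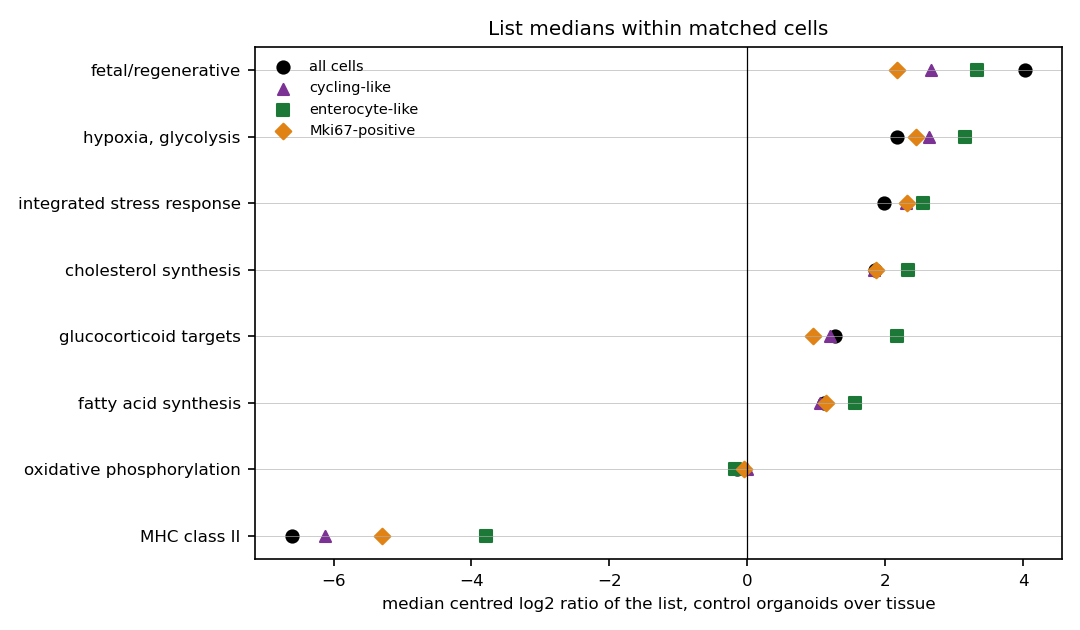
Median centred log2 ratio of 8 gene lists, control organoids over tissue, over all cells (circles) and within cycling-like (triangles), enterocyte-like (squares) and Mki67-positive cells (diamonds). The hypoxia medians lie between 2.17 and 3.16 and those of MHC class II between -6.60 and -3.79, and those of oxidative phosphorylation between -0.18 and 0.00 in the 4 sets of cells drawn.

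Genes were also named by size alone, among those seen in at least 10% of thinned cells of the higher side and not carried by 1 cell. The 10 highest were Anxa10, Akp3, Scd1, Pam16, Areg, Gprc5a, Ankrd37, Tnfrsf12a, Hist1h2ap and Slc16a3. Anxa10, an annexin known from the stomach, led with 96.2 CPM in control and 13.9 in cocultured organoids, 0.0637 in tissue epithelium from 3 UMIs, and 0.0411 and 0 in the sections, a ratio of 10.38 (8.83 to 12.66). Gprc5a and Tnfrsf12a, the receptor of the cytokine TWEAK, had ratios of 5.05 and 4.61. The 10 lowest were Reg3b, Defa21, Mptx2, Car4, Gsdmc4, Fabp6, Defa22, H2-Aa, Cd74 and Reg3a. Car4, a surface carbonic anhydrase, had 1 UMI in control organoids against 214 CPM in tissue epithelium and 1012 and 1157 in the sections. Gsdmc4, a gasdermin of the gut, had 0 UMIs in control organoids against 193 CPM. With genes required to be at least 2 times as high in tissue epithelium as without Epcam, Reg1 and Reg3g took the places of H2-Aa and Cd74.

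Some genes were low in the dissociated tissue libraries alone. In 15 genes both organoid libraries and both sections held at least 5 CPM and at least 8 times the level in small and in large intestinal epithelium. They were Adm, Ak4, Bnip3, Egln3, Fam43a, Gm2061, Gml, Gml2, Nutf2-ps1, Pam16, Plat, Rpl10, Slc16a3, Snhg9 and Sprr1a. This choice fixes that they are called higher in organoids. Of these, Adm, Bnip3, Egln3 and Slc16a3, 4 in all, belong to the hypoxia list. Rpl10, a ribosomal protein with near-identical copies, was at 1734 CPM in organoids and 11.5 in tissue epithelium, with 206 and 163 in the sections, while the 91 ribosomal protein genes compared had a median of 0.25. The tissue libraries were counted against a feature list with 2 GFP entries that the organoid libraries did not have, and whether other parts of the references differed was not tested.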

How the data were processed

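The deposited matrices hold UMI counts per gene and barcode, whole numbers that the authors left without normalization, made with Cell Ranger 6.0.1 and Space Ranger 1.2.1 per the file headers, on build mm10 per the submitters' processing notes. Filters by the authors beyond cell calling are not given in the sources used here. From 32285 genes, of which 32158 IDs matched a table of gene names, the counts of the barcodes kept on each side were summed and scaled to CPM. Ratios used a floor of 3 counts. Ratios of 2 counts carry exact Poisson intervals and shares exact Clopper-Pearson intervals, both at 95% and for counting error only. Shares were taken after thinning each cell to 2000 UMIs, which kept 489 organoid, 1502 tissue epithelial and 715 Epcam-0 barcodes and left out 51, 18 and 170. Each side was clustered on its own (10000 per cell, 2000 variable genes, 30 components, 15 neighbours, Leiden resolution 1) and clusters were named from marker genes. Doublets were kept, and their removal by Scrublet was tried as an alternative. A further alternative removed barcodes with a UMI, at full depth, of the leukocyte, lymphatic endothelial, blood endothelial or fibroblast markers. No other marker set was used for it. Barcodes shared by both sides numbered 1 before and 0 after filtering. Spots with at least 500 UMIs were summed per section.

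The 36 gene lists, the markers and the cells compared were chosen with earlier results of these data known. Genes were named within the lists by largest and smallest ratio or best known role, and otherwise as the 10 highest and 10 lowest with at least 100 UMIs, a UMI in at least 10% of thinned cells and at most 20% of UMIs in 1 cell of the higher side, unnamed models, ribosomal, mitochondrial, immunoglobulin and sex-linked genes left out; the 15 genes low in dissociated tissue were picked after values were seen. Promoter windows came from RefSeq. Python 3.11.15, numpy 2.4.6, scipy 1.17.1, pandas 2.3.3, scanpy 1.11.5 and matplotlib 3.10.9 were used, and the scripts were tested on simulated data. Large intestine sections were not analysed here. Most members of the lists are counted in them and not named.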

Additional observations from a re-analysis of the deposited data

Results flagged for a closer look

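The tissue libraries carry 2 features for green fluorescent protein that enter no comparison above. GFP-PLUS was seen in 96 of 1520 small intestinal epithelial cells, 6.32% (exact binomial interval 5.15% to 7.66%), against 2 of 885 barcodes without Epcam, 0.226%. In large intestinal epithelium it was seen in 918 of 4537 cells, 20.2%. GFP-MINUS was seen in 4 of the 1520 cells. The organoid libraries were counted without these features.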

How the results depend on the processing

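No paired analysis was possible because each side is 1 library and no test was made, so no replicate could be left out either. With at least 20 CPM required on either side, 483 genes were higher and 568 lower of 6070, and with no CPM limit 2032 and 3825 of 17900; fewer or more genes enter by construction. Over the other 13 alternatives the counts ranged from 642 to 1127 higher and from 921 to 1300 lower. Of the 16 lists with a median at least 1 from 0, 9 stayed past 1 in the same direction under each of the 15 alternatives, and all 239 values kept their sign. The hypoxia median ranged from 1.97 to 2.99, cholesterol from 1.73 to 2.03, stress response from 1.35 to 2.71, fetal and regenerative from 1.93 (13 genes compared with cocultured organoids) to 5.73, and MHC class II from -7.68 to -4.38. The 7 lists that came inside 1 under some alternative did so at their least as follows: brush border genes at -0.53 and Reg and defence genes at -0.43 without barcodes that held other cell types' markers, Paneth genes at -0.33 and glucocorticoid targets at 0.96 in Mki67-positive cells, fatty acid genes at 0.90 and hormone genes at -0.07 (14 genes compared) with cocultured organoids, and extracellular matrix and protease genes, whose median was 2.61, at 0.33 with no CPM limit. With those barcodes removed, 309 organoid and 474 tissue cells were left, and 1117 genes were higher and 1015 lower. Among the lists within 1, the EGF family came to -0.19 and crypt stem cell genes to -0.51 with cocultured organoids. Single genes changed direction as follows: with cocultured in place of control organoids Egfr came to -0.13, Chga to 1.59, Cck to 0.24, Gcg to 0.0853 and Slc28a2 to -1.50. In Mki67-positive cells alone Lyz1 came to 1.21, Slc28a2 to -4.32 and Apoa4 to -0.25. Nupr1 came to 0.61 as a mean over cells and to 1.62 without barcodes of other markers. The cause was not tested. Depth limits genes near the floor of 3 counts, where ratios are bounds.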

Other observations

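Of all genes compared 8.18% were higher and 11.3% lower in control organoids, and the counts of these lists are to be read against those shares. Ribosome biogenesis genes were higher in 7 of 29 and lower in 0, with a median of 0.93, and in cocultured organoids 15 of 29 were higher, against 8.62% of all genes. Without barcodes that held other cell types' markers 1 was higher, against 11.3%, and the median was 0.17. Of 30 cytoskeleton, keratin and adhesion genes 13 were higher and 2 lower, with Tmsb10, an actin-binding peptide, at 3438 CPM in control and 2500.5 in cocultured organoids against 456 in tissue epithelium. Among p53 targets 6 of 18 were higher and 1 lower, with a median of 0.59; Gdf15, a stress cytokine, was at 38.7 and 47.3 CPM against 3.02, and at 0.90 and 1.2 in the sections. Among 15 claudin and junction genes 3 were higher and 0 lower, with a median of 0.26 (-0.19 in cocultured organoids) and the pore-forming claudin Cldn2 at 187 and 149.9 CPM against 48.9 and 102 and 90.4 in the sections. Ciart, a clock repressor, had a ratio of 4.56 from 272 organoid and 11 tissue UMIs, in a clock list with 4 of 13 higher, 1 lower and a median of 0.48.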
